A study of Mus musculus with 3 samples.

Results

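The genes described here are 44 genes of the interferon response, read in adult lung endothelial cells (ECs). They were chosen by symbol from a list that covers the receptors for type I and type II interferon, the transcription factors of the pathway, the sensors of viral RNA and the genes that interferon induces. All 44 have a row among the 24346 gene symbols of the deposited table. The cells were sorted from the lungs of wild type C57BL/6J mice, which the study describes as males aged 6 to 8 weeks, and were not cultured. Mice received an antibody to VE-cadherin by vein, and dissociated cells were sorted as CD31+, with CD45 and podoplanin stained to leave out leukocytes and lymphatic cells. The 3 libraries, S38, S44 and S52, belong to 1 group and 1 condition, with no treatment named and no control, so no difference between conditions could be tested. Nothing in the labels says whether a library came from 1 mouse or from several. The spread between libraries may therefore be technical, and each statement about it is a description. Levels are FPKM, which divides fragments by gene length and library size.

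Type I interferons bind a receptor made of IFNAR1 and IFNAR2, and type II interferon binds IFNGR1 and IFNGR2. The type I receptor acts through kinases on STAT2 and its partner, which join IRF9 and bind the interferon-stimulated response element (ISRE), a repeat of GAAA. The type II receptor acts through STAT dimers that bind the gamma-activated site (GAS), and IRF1 is among the first genes induced. The induced genes restrict viruses and other pathogens, and endothelium, which faces the blood, carries these receptors and is known to respond to both types. Many induced genes are also expressed at a basal level in healthy tissue.

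The promoters of the members were read first, because the ISRE and the GAS are the DNA elements through which interferon acts. Promoter sequences are those of RefSeq on GRCm38.p6 and run from 250 bases before to 50 after each start. They were found for 39 members (48 windows), and *Mx1*, *Mx2*, *Oas2*, *Usp18* and *Dhx58* are named only. The ISRE core was searched as GAAANNGAAA on both strands (read as TTTCNNTTTC on the other), and the GAS as TTCNNNGAA, which reads the same on both strands. The following windows are written 5′ to 3′ along the gene's own strand with the ISRE core in capitals. They were picked for their place upstream of the start with no annotated exon under them. *Oas3* also has such a window, which is not printed. The printed windows cover an interferon-induced modifier, tetratricopeptide proteins, a radical enzyme, a nucleotide synthetase, a membrane factor, GTPases and a transcription factor.
Isg15, chr4:156200860-156200911, minus strand: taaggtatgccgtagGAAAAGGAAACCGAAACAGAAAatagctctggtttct
Ifit1, chr19:34640770-34640828, plus strand: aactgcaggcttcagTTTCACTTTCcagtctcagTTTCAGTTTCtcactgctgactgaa
Ifit3, chr19:34583358-34583397, plus strand: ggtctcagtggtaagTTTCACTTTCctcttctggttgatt
Ifit3, chr19:34583392-34583431, plus strand: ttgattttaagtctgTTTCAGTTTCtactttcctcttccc
Rsad2, chr12:26456548-26456587, minus strand: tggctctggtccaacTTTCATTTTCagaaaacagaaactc
Oas1a, chr5:120907526-120907560, minus strand: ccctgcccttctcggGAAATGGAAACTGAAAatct
Bst2, chr8:71537572-71537617, minus strand: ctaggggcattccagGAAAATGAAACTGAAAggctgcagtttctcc
Igtp, chr11:58199507-58199546, plus strand: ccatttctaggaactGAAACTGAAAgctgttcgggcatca
Irgm2, chr11:58214898-58214937, plus strand: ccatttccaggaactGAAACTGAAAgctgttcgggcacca
Stat2, chr10:128270261-128270300, plus strand: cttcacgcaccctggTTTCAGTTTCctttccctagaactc

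The GAS is shown for the transcription factors that have it and no ISRE core, with the GAS in capitals.
Irf1, chr11:53769909-53769947, plus strand: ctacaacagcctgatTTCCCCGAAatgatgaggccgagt
Irf8, chr8:120736172-120736228, plus strand: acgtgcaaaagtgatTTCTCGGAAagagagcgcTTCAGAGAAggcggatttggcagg

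An ISRE core was found in the promoters of 19 of the 39 members (48.7%), against 3.99% of the 27025 genes of the promoter table. With 1 base between the copies in place of 2, matches were found in 7 members, and with 3 bases in 3 members. *Isg15* held 3 overlapping matches of the core in a single stretch, and *Igtp* and *Irgm2*, neighbours on chromosome 11, held the same core with nearly the same flanks. A GAS was found in 15 members (38.5%), against 9.55% of all genes. Both elements were present in 7 members, and in *Bst2* and *Ifitm3* the matches overlapped. Neither was found in 12 members, among them *Ifngr1*, *Ifngr2*, *Irf7* and *Irf9*. The shares of all genes with both elements or with neither were not taken, so these counts have no background beside them. A match is a stretch of letters, not a bound site, and the members are known interferon genes, so the share describes the list. No match says only that these letters are not in the window.

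**Figure D1:**
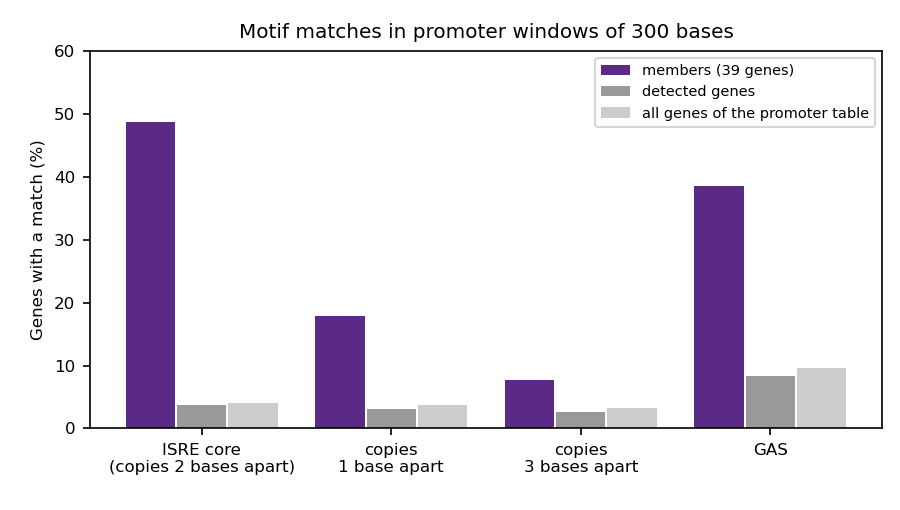
Share of genes (%, from 0) with a motif match in promoter windows, for 39 members, for detected genes and for all genes of the promoter table. The ISRE core with copies 2 bases apart was found in 48.7% of members, and the spacings of 1 and 3 bases in 17.9% and 7.69%, against 3.99%, 3.70% and 3.17% of all genes.

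The sort was checked on marker lists. All 10 endothelial markers were detected, a mean of at least 1 FPKM, and summed to 6442 (S38), 7063 (S44) and 6276 FPKM (S52). The sums of the other lists were lowest in S52. In the same order, myeloid markers (5 of 7 detected) summed to 1085, 830.3 and 184 FPKM, most of it from *Lyz2*, which alveolar type 2 cells also express. Lymphoid markers (4 of 6) summed to 15.4, 13.1 and 4.50 FPKM, with *Cd3e* and *Nkg7* at 0 in S52. Platelet markers (4 of 4) summed to 1692, 1345 and 37.96 FPKM, alveolar type 2 markers (5 of 5) to 3839, 3218 and 766 FPKM, and airway markers (5 of 5) to 2779.6, 2316 and 401 FPKM. Fibroblast and mural markers (5 of 5) summed to 68.6, 52.2 and 44.1 FPKM, a fall carried by *Dcn*, at 47.4 (S38), 35.5 (S44) and 19.8 FPKM (S52), while *Pdgfra*, *Pdgfrb* and *Cspg4* were highest in S52. The 3 markers of plasmacytoid dendritic cells, known makers of type I interferon, were each below 1 FPKM. In bulk RNA, fewer cells of a type and less RNA per cell cannot be told apart. Depth is not part of the table and was estimated from the steps of low values at 37600000, 38600000 and 34200000 fragments.

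Nearly all of the listed genes were detected in these libraries of sorted adult lung ECs, with no treatment named. As the marker sums show, the libraries also held RNA of other cell types, and its part in the members' levels was not tested. Of the 44 members, 41 (93.2%) were detected, and all 41 were at 1 FPKM or above in every library, against 48.3% of all rows of the table with such a mean. The median member stood at 25.6 FPKM and the median of all 24346 rows at 0.784 FPKM, or 11.2 FPKM among the 11770 detected genes. A mean of 10 FPKM was reached by 32 members and 25.7% of all rows, and 100 FPKM by 8 members and 3.64% of all rows. Those 8, in order, were *Ifitm3*, *Ifitm2*, *Irf1*, *Bst2*, *Irgm1*, *Igtp*, *Gbp2* and *Isg15*. The order of neighbours was mostly within the spread: of 43 neighbouring pairs, 38 had ranges over the 3 libraries that overlapped. The 5 gaps without overlap were those of *Ifitm3* above *Ifitm2*, *Bst2* above *Irgm1*, *Irgm2* above *Gbp3*, *Ifih1* above *Ifitm1*, and *Irf5* above *Irf4*. Orders of libraries given for single genes and groups are those of the FPKM as deposited. They depend on the scale of the libraries: rescaled to the same sum, 7 members in place of 24 were highest in S44, and 22 in place of 5 in S38. That scaling also put the median difference of S44 from S38 over all detected genes at -0.45 (log2). After scaling by median ratios, 23 members were highest in S44 and 4 in S38. The shares of all detected genes highest in each library were taken as deposited only.

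**Figure D2:**
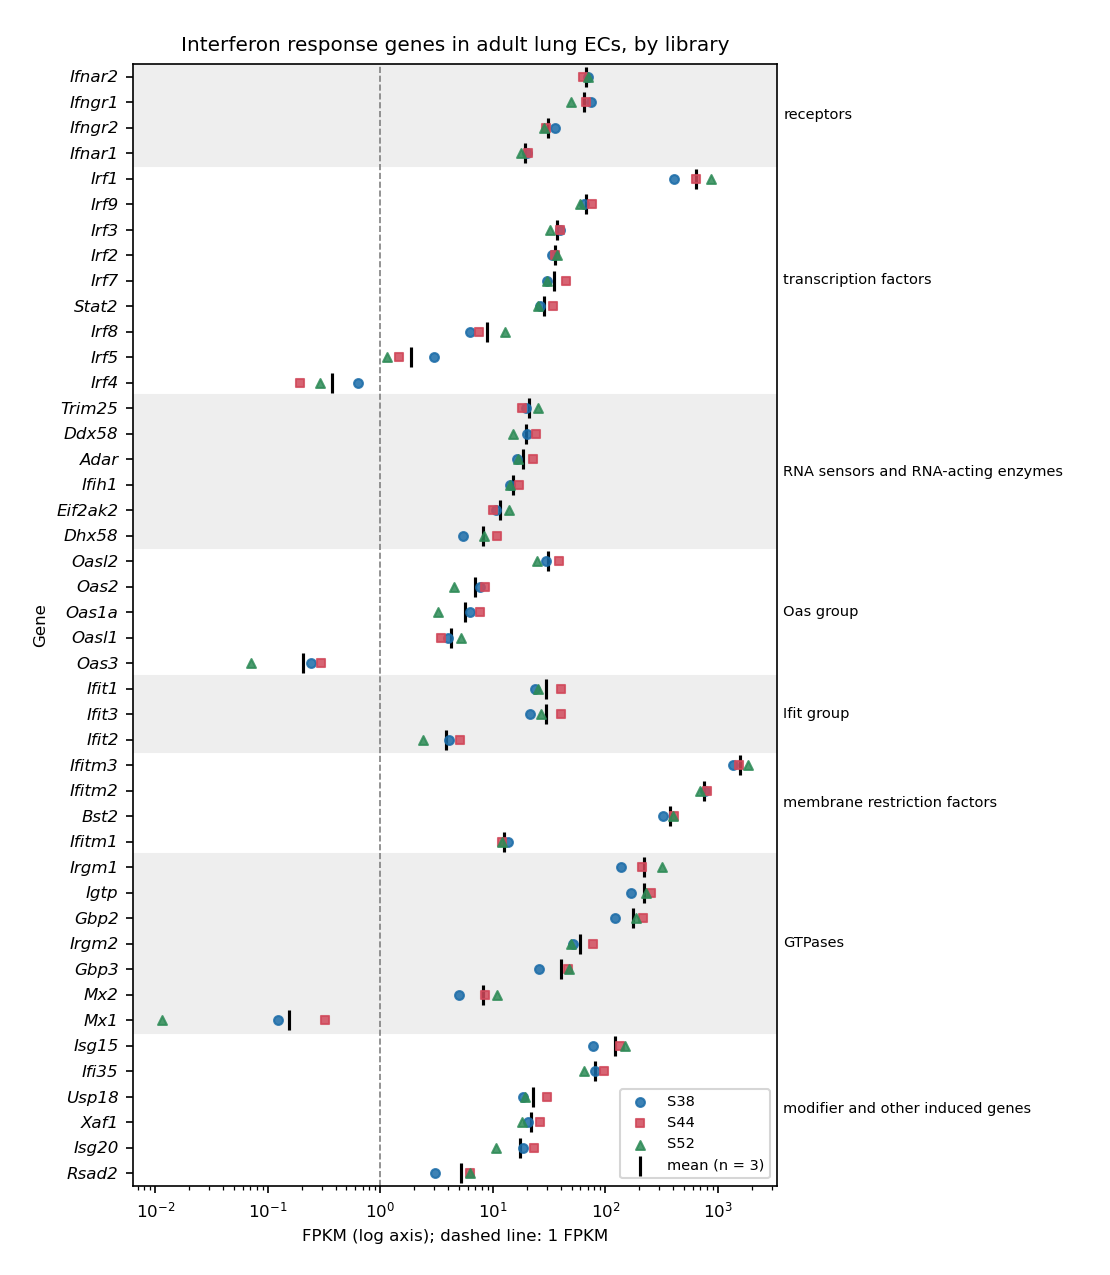
FPKM (log axis) of the 44 members in each of the 3 libraries, grouped by role and ordered by mean, with a bar at the mean. Levels run from *Ifitm3* at 1584 FPKM down to *Mx1* at 0.153 FPKM, and only *Irf4*, *Oas3* and *Mx1* lie left of the dashed line at 1 FPKM.

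All 4 receptor chains were detected, with an SD between 6.47 and 20.1% of the mean over the libraries. *Ifnar2*, the chain that holds type I interferon most tightly, was at 70.7 (S38), 62.7 (S44) and 69.8 FPKM (S52). *Ifnar1*, its signalling partner, was at 19.9 (S38), 20.5 (S44) and 17.8 FPKM (S52). The lowest value of *Ifnar2* was above the highest of *Ifnar1*. *Ifngr1*, the ligand-binding chain for type II interferon, was at 75.1 (S38), 67.6 (S44) and 49.9 FPKM (S52). *Ifngr2*, the second chain, was at 35.4 (S38), 29.9 (S44) and 28.3 FPKM (S52). The pairs thus had 1 chain above the other in every library, with means of 67.7 ± 4.38 FPKM (SD, n = 3) against 19.4 ± 1.41 FPKM (SD, n = 3), and of 64.2 ± 12.9 FPKM (SD, n = 3) against 31.2 ± 3.74 FPKM (SD, n = 3). Of the 4 receptors, 3 were highest in S38 and *Ifnar1* in S44. Reads of *Ifnar2* are less certain than the others, since a readthrough gene, *Gm21970*, shares 8.84% of its windows of 51 bases.

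*Irf1* was the highest of the 9 transcription factors. This factor is induced early by type II interferon and by inflammatory signals, and its promoter holds the GAS printed above. It was at 404 (S38), 636 (S44) and 877 FPKM (S52), or 639 ± 237 FPKM (SD, n = 3), above 99.3% of all genes of the table. *Irf1* was lowest in S38 and highest in S52, a difference of 1.12 on the log2(FPKM + 1) scale. *Irf9*, the DNA-binding partner of STAT2, was at 64.3 (S38), 75.7 (S44) and 60.03 FPKM (S52), and *Stat2* at 26.1 (S38), 34.1 (S44) and 25.0 FPKM (S52). *Irf7*, which amplifies type I interferon production, was at 30.6 (S38), 44.8 (S44) and 30.1 FPKM (S52). All 3 were highest in S44, with S38 and S52 close to each other.

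*Irf2*, a factor that counters IRF1, and *Irf3*, which is activated by phosphorylation when viral nucleic acid is sensed, were near the same level. *Irf2* was at 33.9 (S38), 35.7 (S44) and 37.2 FPKM (S52) and had the smallest relative spread of all members, an SD of 4.67% of its mean. *Irf3* was at 39.2 (S38), 39.5 (S44) and 31.9 FPKM (S52). Their ranges over the libraries overlapped. *Irf8*, a factor best known from myeloid and B cells, was at 6.29 (S38), 7.503 (S44) and 12.8 FPKM (S52), highest in S52, the library with the lowest myeloid and lymphoid sums. *Irf5*, another factor known from myeloid cells, was at 3.02 (S38), 1.46 (S44) and 1.14 FPKM (S52). *Irf4*, a factor of lymphocytes and plasma cells, was at 0.634 (S38), 0.192 (S44) and 0.292 FPKM (S52), below 1 FPKM throughout. *Irf5* was thus highest in S38, as were the leukocyte sums, and *Irf8* was not. *Ptprc*, which encodes CD45, was at 4.30 (S38), 2.06 (S44) and 0.434 FPKM (S52). The part of leukocytes in the values of *Irf4*, *Irf5* and *Irf8* was not tested.

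All 6 RNA sensors and RNA-acting enzymes were detected, within a narrow band of means from 8.25 to 21.0 FPKM. *Ddx58*, which encodes the sensor RIG-I, was at 19.9 (S38), 24.1 (S44) and 14.99 FPKM (S52). *Ifih1*, which encodes the sensor MDA5 of long double-stranded RNA, was at 14.1 (S38), 17.0 (S44) and 14.3 FPKM (S52). *Dhx58*, which encodes LGP2, a regulator of both, was the lowest of the group at 5.46 (S38), 10.9 (S44) and 8.38 FPKM (S52). All 3 sensors were highest in S44. *Adar*, the editing enzyme that keeps self RNA from being sensed, was also highest there, at 16.5 (S38), 22.6 (S44) and 16.8 FPKM (S52), with the limit that 20.1% of its windows lie in *Chrnb2* on the opposite strand, in libraries that do not mark strand. *Trim25*, a ubiquitin ligase that helps RIG-I, was at 19.7 (S38), 18.3 (S44) and 25.1 FPKM (S52), and *Eif2ak2*, which encodes the kinase PKR, at 10.7 (S38), 10.0 (S44) and 13.9 FPKM (S52). These last 2 were lowest in S44 and highest in S52.

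The Ifit genes, known as strongly induced by type I interferon, were all detected. *Ifit1*, whose protein binds viral RNA that lacks the host cap mark, was at 23.5 (S38), 39.9 (S44) and 25.1 FPKM (S52), and *Ifit3*, its partner, at 21.5 (S38), 40.0 (S44) and 26.7 FPKM (S52). Both were highest in S44, above S38 and S52, which lay closer together. *Ifit2* was much lower, at 4.09 (S38), 5.08 (S44) and 2.38 FPKM (S52), with all its values below those of the other Ifit members. *Ifit3* shares 50.8% of its windows with its near copy *Ifit3b*, which was itself at 5.54 (S38), 8.34 (S44) and 6.84 FPKM (S52), so the split between the copies is uncertain.

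The Oas group is named for 2′-5′-oligoadenylate synthetase, which makes the activator of the RNA-cutting enzyme RNase L, and in it *Oasl2* stood highest at 29.8 (S38), 38.8 (S44) and 24.7 FPKM (S52). *Oas2* was at 7.72 (S38), 8.57 (S44) and 4.47 FPKM (S52) and *Oas1a* at 6.20 (S38), 7.61 (S44) and 3.23 FPKM (S52). *Oasl2*, *Oas2* and *Oas1a* shared the order S44, S38, S52. *Oasl1*, which restrains translation of *Irf7*, was at 4.03 (S38), 3.49 (S44) and 5.25 FPKM (S52), with the opposite order. *Oas3* was at 0.242 (S38), 0.297 (S44) and 0.0709 FPKM (S52), which corresponds to an estimated 41.6, 52.4 and 11.0 fragments. *Oas1a* shares 57.0% of its windows with *Oas1g* and *Oas1b*, and *Oas1b*, whose copy in C57BL/6 mice carries an early stop, was at 8.61 (S38), 12.7 (S44) and 8.40 FPKM (S52).

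The membrane restriction factors were the highest group, with a median of 566 FPKM. *Ifitm3*, which blocks the entry of viruses from endosomes, was at 1363 (S38), 1548 (S44) and 1842 FPKM (S52), and ranked 53 of all 24346 rows. *Ifitm2*, its close relative, was at 762 (S38), 799 (S44) and 700.3 FPKM (S52). *Bst2*, which encodes tetherin, the protein that holds budding virus at the cell surface, was at 326 (S38), 408 (S44) and 400.0 FPKM (S52). *Ifitm2*, *Ifitm3* and *Bst2* together made up 54.7% of the summed mean FPKM of all members. *Ifitm1* stood far below, at 13.6 (S38), 12.0 (S44) and 12.1 FPKM (S52). The 3 Ifitm genes lie together on chromosome 7, *Ifitm2* from 140954837 to 140955987, *Ifitm1* from 140967221 to 140969825 and *Ifitm3* from 141009586 to 141010770 (GENCODE M21, GRCm38). Their transcripts are short, and 48.3% of the windows of *Ifitm2* also occur in other genes, mainly *Gm45717*, which overlaps it on the same strand, against 9.71% for *Ifitm3* and 6.01% for *Ifitm1*. The level of *Ifitm2* is therefore the least certain of the 3.

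The GTPases that type II interferon induces against intracellular bacteria and parasites were the next highest group. *Irgm1* was at 137 (S38), 209 (S44) and 320.4 FPKM (S52). *Igtp*, which encodes IRGM3, was at 169.5 (S38), 255 (S44) and 232 FPKM (S52), and *Gbp2* at 121 (S38), 216 (S44) and 188 FPKM (S52). These genes were lowest in S38, where no value reached that of S44 or S52. *Irgm1* stood apart in S52, where it was 2.33 times its S38 level on the FPKM + 1 scale, the largest such ratio of any detected member. *Gbp3* was at 25.9 (S38), 46.6 (S44) and 47.3 FPKM (S52), also lowest in S38, and *Irgm2* at 52.1 (S38), 76.9 (S44) and 49.9 FPKM (S52), which was highest in S44. *Igtp* and *Irgm2* share exons and windows (12.1% of the windows of *Igtp*), so their split is uncertain.

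*Mx1* and *Mx2* encode GTPases against influenza and other viruses, and laboratory strains such as C57BL/6 are known to carry defective copies of both. *Mx2* was at 5.03 (S38), 8.57 (S44) and 10.8 FPKM (S52), lowest in S38, and GENCODE M21 labels it a polymorphic pseudogene. *Mx1* was at 0.124 (S38), 0.325 (S44) and 0.0116 FPKM (S52), which corresponds to an estimated 15.1, 40.5 and 1.27 fragments. The value of *Mx1* in S52 lies under 0.0273 FPKM, the limit that a count of 0 allows there (3 fragments, counting error only), so no ratio is given. *Mx1* and *Mx2* share 155 windows of 51 bases.

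*Isg15* encodes a ubiquitin-like modifier that is joined to proteins after interferon, and its promoter holds the 3 overlapping ISRE core matches printed above. It was at 77.5 (S38), 135 (S44) and 151 FPKM (S52), or 121 ± 38.6 FPKM (SD, n = 3). *Usp18*, the protease that removes ISG15 and damps the type I receptor, was at 18.4 (S38), 30.6 (S44) and 19.3 FPKM (S52). *Isg15* was high in S44 and in S52, and *Usp18* in S44 alone. *Ifi35*, which encodes a partner of NMI, was at 80.2 (S38), 97.1 (S44) and 64.3 FPKM (S52), with the limit that 10.6% of its windows are shared with *Gm11626*, which overlaps it on the opposite strand. *Xaf1*, which encodes a pro-apoptotic antagonist of XIAP, was at 20.7 (S38), 26.4 (S44) and 18.3 FPKM (S52). *Isg20*, an RNA exonuclease, was at 18.4 (S38), 23.4 (S44) and 10.6 FPKM (S52). *Ifi35*, *Xaf1* and *Isg20* shared the order S44, S38, S52. *Rsad2*, which encodes viperin, a maker of a chain-terminating nucleotide, was at 3.06 (S38), 6.25 (S44) and 6.27 FPKM (S52), with S44 and S52 nearly equal and S38 lowest.

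The library in which each member was highest was counted next. Of the 41 detected members, 24 (58.5%) were highest in S44, 12 (29.3%) in S52 and 5 (12.2%) in S38. Among all detected genes, 28.9% were highest in S44, 33.9% in S52 and 37.1% in S38. The sums of the libraries differ, from 1153890 FPKM in S38 to 1603600 FPKM in S44, and rescaling each to 1000000 puts the median difference of S44 from S38 over all detected genes at -0.45 (log2), so differences are also given relative to all genes. On the log2(FPKM + 1) scale, the median difference of S44 from S38 was 0.27 over the members and -0.03 over all detected genes, 0.31 apart. The distance was 0.30 under the same sum, where the members' own median was -0.15, and 0.31 after scaling by median ratios. As deposited, 33 of the 41 members were higher in S44 than in S38, against 45.0% of all detected genes. The endothelial marker sum was also highest in S44, and so were 3 of the 5 detected myeloid markers, *Cd68* at 17.0 (S38), 27.4 (S44) and 16.7 FPKM (S52), *Csf1r* at 1.25 (S38), 1.85 (S44) and 1.30 FPKM (S52) and *S100a8* at 13.6 (S38), 17.8 (S44) and 0.251 FPKM (S52), while *Ptprc* and *Lyz2* were highest in S38. Their part in the counts was not tested.

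S52 differed less from S38 at the median, and its members spread both ways. The median difference of S52 from S38 was 0.02 over the members and -0.08 over all detected genes, and 21 members were higher in S52, against 42.9% of all detected genes. The members' median turned to -0.26 under the same sum, where all detected genes were at -0.34, and to -0.019 when the 3 members below 1 FPKM were kept. The single differences ran from -0.91 for *Irf5* to 1.22 for *Irgm1*. *Irf1*, *Irgm1*, *Mx2*, *Isg15*, *Irf8*, *Gbp3* and *Rsad2* lay at the upper end, from 0.84 to 1.22. *Oas1a*, *Isg20*, *Oas2*, *Ifit2* and *Ifngr1* lay at the lower end, from -0.77 to -0.58. The ISRE core was present in *Irgm1*, *Isg15*, *Gbp3* and *Rsad2* at the upper end and in *Oas1a* at the lower. For *Mx2* and *Oas2* no promoter sequence was found. The median of S52 minus S38 was 0.30 over 18 detected members with the core and -0.16 over 19 without, a set that holds all the receptors. Over detected genes that are no members, the medians were -0.04 with the core and -0.08 without. Against S44, the median member of S52 was at -0.20 as deposited, and all detected genes at -0.06.

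**Figure D3:**
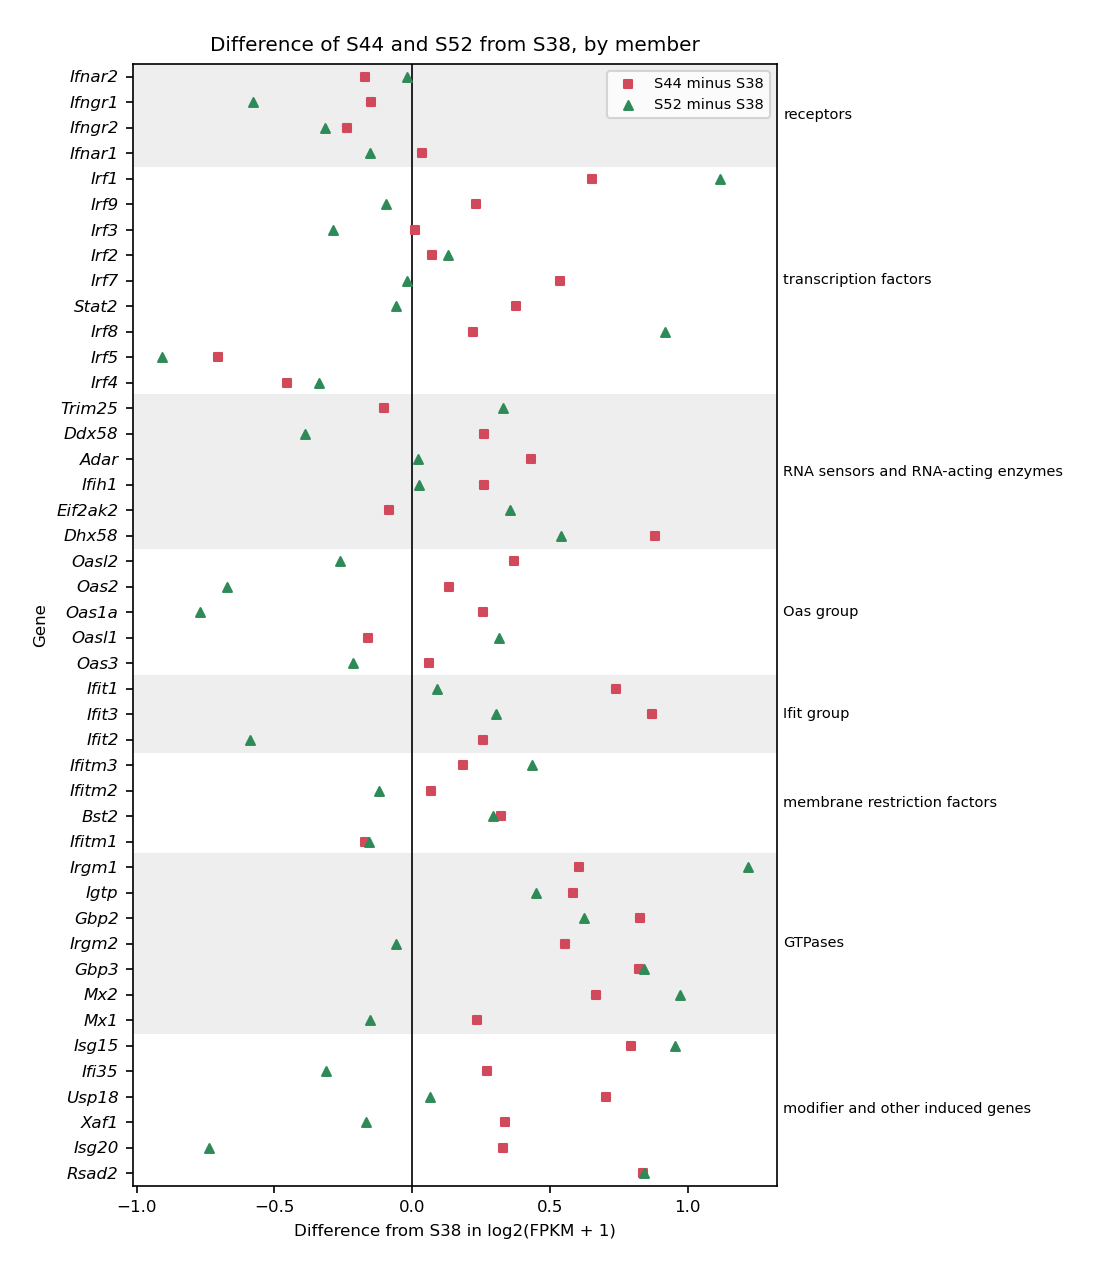
Difference of S44 (squares) and S52 (triangles) from S38 in log2(FPKM + 1) for each member, grouped by role. As deposited, 33 of 41 detected members have squares right of 0, and triangles fall on both sides, with *Irgm1* and *Irf1* farthest right. After rescaling to the same sum, the median of all detected genes is at -0.45 for S44 and -0.34 for S52.

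By role, the Ifit and GTPase groups differed most between S44 and S38. Their median differences were 0.74 and 0.64, followed by 0.52 for the modifier and other induced genes. RNA sensors and RNA-acting enzymes were at 0.26, transcription factors at 0.23, the Oas group at 0.20 and membrane restriction factors at 0.13. The receptors were at -0.16. Between S52 and S38 the GTPases were at 0.73 and the Oas group at -0.47, so the induced groups did not share 1 order of libraries. Under the same sum, the S44 values of the Ifit group, the GTPases and the modifier group kept their sign, at 0.28, 0.19 and 0.06, and those of the transcription factors, the RNA sensors, the Oas group and the membrane factors turned negative. Relative to all genes under that scaling, the receptors were the group below 0, at -0.18, and the other groups lay from 0.10 to 0.72.

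Of the members, 4 passed the threshold used here for a large difference. These 4 of the 41 detected (9.76%) differed over 2-fold between their top and bottom library, taken on FPKM + 1, against 12.7% of all detected genes. They were *Irgm1* and *Irf1*, highest in S52, and *Isg20* and *Oas1a*, highest in S44 and lowest in S52. Without S52 no member passed 2-fold, and without S38 or without S44 the number was 2. With 1 library fewer this number can only fall or stay. The median SD over the detected members was 22.9% of the mean, against 17.6% over all detected genes. Of 18 detected members with the ISRE core, 17 were higher in S44 than in S38 as deposited, with a median difference of 0.47. Of the 19 without the core, a set that holds all the receptors, 12 were higher, with a median of 0.22. With the GAS, 13 of 15 members were higher in S44, with a median of 0.26, and without it 16 of 22, with a median of 0.30. Among all detected genes, 45.0% were higher in S44 than in S38. Among detected genes that are no members, the shares were 53.7% with the ISRE core and 44.5% without. For the GAS they were 46.0% and 44.7%.

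**Figure D4:**
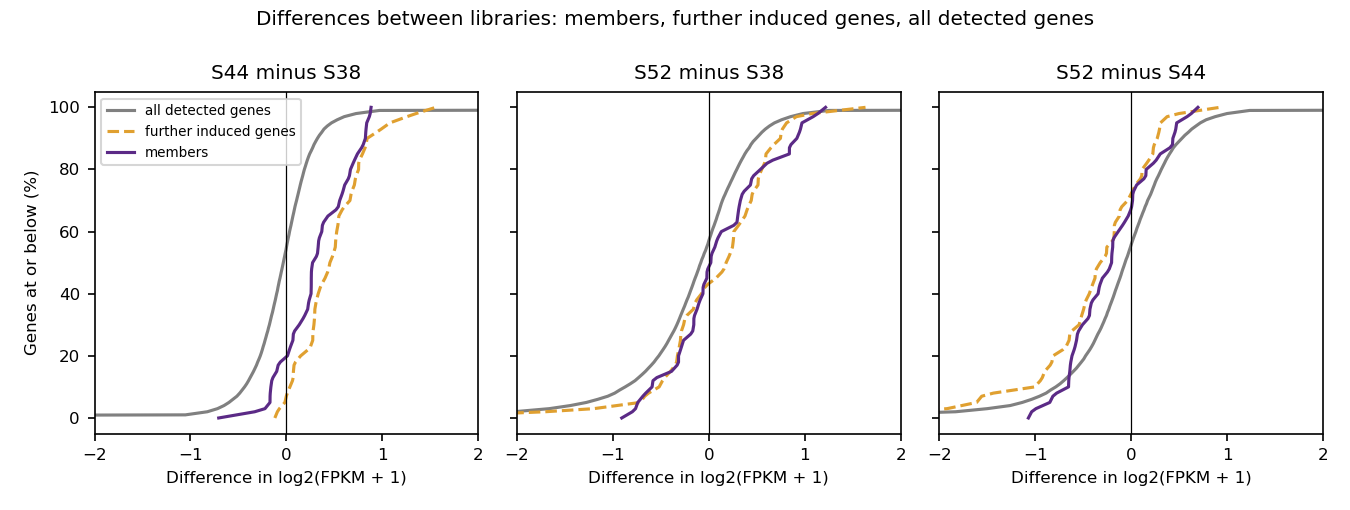
Cumulative share of genes (%) by their difference between 2 libraries in log2(FPKM + 1), for the members, for 41 detected further induced genes and for all 11770 detected genes. For S44 minus S38 the medians of the members and the further induced genes are 0.27 and 0.45, right of -0.03 for all genes. For S52 minus S44 the members' median of -0.20 lies left of -0.06 for all genes, and the curves cross, with the members right of all genes at the lowest 10%. Differences beyond 2 on this scale are not drawn.

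Of 63 further genes of the pathway, 50 (79.4%) were detected, against 48.3% of all rows of the table. None of the 10 ligands was detected. *Ifnb1*, *Ifna1*, *Ifna2*, *Ifna4*, *Ifna5*, *Ifne*, *Ifnk*, *Ifnl2* and *Ifnl3* were listed at 0 in all 3 libraries, which for *Ifnb1* allows up to 0.133, 0.13 and 0.151 FPKM. *Ifng*, the type II interferon made by T and natural killer cells, was listed at 0 in S38 and S52 and stood at 0.392 FPKM in S44, an estimated 16.0 fragments. S44 was also the library in which most members were highest. The lymphoid sums were similar in S38 and S44, and the part of *Ifng* or of lymphocytes in the members' values was not tested. *Ifnlr1*, the chain particular to type III interferon, was at 0.287 (S38), 0.232 (S44) and 0 FPKM (S52), whereas *Il10rb*, which it shares with interleukin receptors, was at 50.9 (S38), 46.4 (S44) and 39.2 FPKM (S52). The kinases *Jak1* and *Jak2* were at 91.3 ± 4.73 FPKM (SD, n = 3) and 21.5 ± 2.91 FPKM (SD, n = 3), *Tyk2* at 9.79 ± 1.49 FPKM (SD, n = 3), and the feedback inhibitor *Socs1* at 4.38 (S38), 5.89 (S44) and 9.03 FPKM (S52), with the order of *Irf1*.

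Further induced genes were also mostly highest in S44 as deposited. Of 42, 41 were detected, and 27 were highest in S44, 12 in S52 and 2 in S38. Among all detected genes, 28.9% were highest in S44, 33.9% in S52 and 37.1% in S38. The median difference of S44 from S38 over the 41 was 0.45, and 38 were higher in S44, against 45.0% of all detected genes. Under the same sum that median was 0.0038, or 0.45 relative to all genes. The highest were *Ly6e*, at 1060.5 (S38), 1334 (S44) and 1378 FPKM (S52), and *Iigp1*, a GTPase related to those above, at 249.8 (S38), 448 (S44) and 396 FPKM (S52). *Ifi47* and *Slfn5* were at 188 ± 51.1 FPKM (SD, n = 3) and 141 ± 25.3 FPKM (SD, n = 3), both highest in S52, and *Lgals3bp* at 94.6 ± 24.8 FPKM (SD, n = 3), highest in S44. The largest ratios between libraries were those of *Ifi27l2a*, *Zbp1* and *Cxcl10*. *Ifi27l2a* was at 8.54 (S38), 13.4 (S44) and 0 FPKM (S52), and *Zbp1*, a sensor of Z-form nucleic acid, at 14.6 (S38), 23.9 (S44) and 5.25 FPKM (S52). *Cxcl10*, a chemokine that draws T cells, was at 24.5 (S38), 40.6 (S44) and 78.1 FPKM (S52). *Cxcl10* thus had the order of *Irf1* and *Irgm1*, and the other two had the order of *Oas1a* and *Isg20*.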

How the data were processed

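RNA of sorted ECs from 3 adult lung samples was sequenced as non-stranded poly-A libraries with 51-base paired reads. The authors deposited 1 table of FPKM values per gene symbol on mm10, with 1 column for each library. The submitters' processing notes name bcl2fastq 2.17, FastQC 0.11.5, Trimmomatic 0.36, TopHat2 2.1.0 and Cufflinks 2.2.1, with no role for each. The study's methods name STAR and HTSeq for its own analysis, and the annotation behind the FPKM values is not given in the sources used here. FPKM gives no counts, and its values depend on the gene models and on how reads shared by copies were split.

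The FPKM values were used as deposited, with Python 3.11.15, pandas 2.3.3 and numpy 2.4.6, and figures with matplotlib 3.10.9. Detection was set at 1 FPKM or more in the mean of the libraries, differences were taken on log2(FPKM + 1), and a large difference was over 2-fold on the FPKM + 1 scale. With 1 group of 3 libraries no test was run, and shares of all genes stand beside those of the members. No 2 columns were identical, and 0 columns of values were left out. All members are named, and of the further genes the ligands, the other receptors and signalling genes, the 5 highest induced ones and the 3 whose libraries differed by the largest ratio. *Oas1b* and *Ifit3b* were named after their values were seen, as copies of members. Members and lists were chosen with earlier results of these data known.

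Depth was estimated from low FPKM values of 7077 genes with 1 transcript, as the number of fragments that makes these values whole. Between 77.1 and 79.0% of 188 to 385 low values came within 0.15 of a whole number, so depths are estimates, as are fragment numbers per gene, which take the longest GENCODE M21 transcript. The estimate was tested on simulated counts with counting error only and the same transcript lengths. That test does not cover reads shared between genes or other gene models. Reads shared by copies were judged by windows of 51 bases that also occur in transcripts of other genes, in place of the planned protein identity, for which no table was used. Alternatives were other scalings, thresholds, pseudocounts and folds, leaving out each library and, chosen after seeing the data, values relative to all genes and other motif spacings.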

Additional observations from a re-analysis of the deposited data

How the results depend on the processing

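The number of detected members was 41 under both other scalings, without any 1 library and with 1 FPKM required in every library. Rescaling to the same sum lowered the median member to 18.4 FPKM. It lowered the group medians to 35.3 FPKM for receptors, 25.2 for transcription factors, 12.2 for RNA sensors, 412 for membrane factors, 42.8 for GTPases and 15.99 for the modifier group. Under that scaling 1 member was over 2-fold, the median differences of S44 and S52 from S38 turned to -0.15 and -0.26, and 22 members were highest in S38 and 7 in S44. After scaling by median ratios, 4 members were highest in S38 and 23 in S44. The largest difference of S44 from S38 for a single detected gene was 18.6 on the log2(FPKM + 1) scale. Scaling by median ratios multiplied the libraries by 0.967 (S38), 0.993 (S44) and 1.04 (S52). The cause of the unequal sums was not tested. The median of S52 from S38 was -0.019 with members kept from 0.1 FPKM and with no filter, and relative to all genes it was -0.019 with no filter. The count over 2-fold was 9 with a pseudocount of 0.1 and 9 with none, and at other folds 21 members were over 1.5-fold and 0 over 3-fold. The share of all genes over the fold was taken at the main setting only, so member counts at other settings have no background beside them. ISRE matches fell to 7 and 3 members at spacings of 1 and 3 bases. Leaving out 1 library at a time, the transcription factor median lay between 30.3 and 35.7 FPKM, lowest without S44. The count over 2-fold lay between 0 and 2, and members highest in S38 numbered between 8 and 20, in S44 between 27 and 33, and in S52 between 14 and 21. With 1 library fewer, the count over 2-fold can only fall or stay. The counts highest in a remaining library can only rise or stay, so the direction of these changes was fixed beforehand. Of the means of single members, 25 of 44 moved by more than 1 SD under the same sum. All 44 stayed within 1 SD under scaling by median ratios, which changed the libraries little. Leaving out 1 of 3 libraries cannot move a mean by 1 SD, so that setting could not test single means. No paired analysis was possible because the 3 libraries form 1 group. Depth limits the lowest members: 3 fragments of a 2000-base transcript correspond to 0.0420 to 0.0479 FPKM.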

Other observations

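Of the 5 adaptors, sensors and kinases of nucleic acid sensing that are no members, 4 were detected in the same libraries. *Tbk1*, the kinase that activates IRF3, was at 27.5 (S38), 29.1 (S44) and 32.7 FPKM (S52). *Mavs*, the mitochondrial adaptor of RIG-I and MDA5, was at 18.5 (S38), 17.7 (S44) and 10.9 FPKM (S52), lowest in S52. *Tmem173*, which encodes STING, was at 6.31 (S38), 11.1 (S44) and 9.92 FPKM (S52), lowest in S38, and *Mb21d1*, which encodes the DNA sensor cGAS, was at 3.99 (S38), 4.01 (S44) and 5.99 FPKM (S52). *Ikbke*, a relative of *Tbk1*, was at 0.397 (S38), 0.286 (S44) and 0.839 FPKM (S52), below 1 FPKM in each library.

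Of 5 other guanylate-binding proteins, described here after their values were seen, *Gbp4*, *Gbp5* and *Gbp6* were over 2-fold between libraries on the FPKM + 1 scale. The ratios of *Gbp7* (1.78) and *Gbp9* (1.68) were near those of *Gbp2* (1.77) and *Gbp3* (1.79). Of the 41 detected further induced genes, which hold these 5 proteins, 7 were over 2-fold, against 12.7% of all detected genes. *Gbp4* was at 33.8 (S38), 101 (S44) and 49.9 FPKM (S52), *Gbp5* at 10.2 (S38), 26.6 (S44) and 8.04 FPKM (S52) and *Gbp6* at 20.6 (S38), 44.7 (S44) and 35.5 FPKM (S52). All 5 were highest in S44 as deposited, as was *Nlrc5*, the activator of class I antigen presentation genes, at 10.0 (S38), 18.6 (S44) and 5.72 FPKM (S52).

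Among detected genes that are no members, 313 held the ISRE core in a promoter window, and 53.7% of them were higher in S44 than in S38 as deposited, against 44.5% of 8529 without it. For the GAS the shares were 46.0% of 729 genes and 44.7% of 8113.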
